A study of Mus musculus with 4 samples.

Results

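The transforming growth factor beta (TGF-beta) pathway was examined through 10 genes, taken by symbol from the 37574 genes of the authors' deposited table. They were the ligands Tgfb1, Tgfb2 and Tgfb3, the receptors Tgfbr1 and Tgfbr2, the feedback genes Smad7, Skil and Pmepa1, and the matrix genes Tgfbi and Ltbp2. All 10 were found, each in a single row. The RNA came from oral tumours of C57BL/6 mice carrying Bmi1CreER and a tdTomato reporter, in which tamoxifen lets Cre switch on the red reporter in cells with an active Bmi1 promoter. All mice had received the carcinogen 4NQO for 26 weeks, and tumours were collected 24 hours after tamoxifen. Cells positive for EpCAM, a protein on the surface of epithelial cells, were gated and sorted by Tomato fluorescence into a positive and a negative fraction, each with 2 samples.

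TGF-beta is secreted in a latent form, bound by its own propeptide and by latent TGF-beta binding proteins, and integrins or proteases release it. The active dimer binds the type II receptor, which phosphorylates the type I receptor, which in turn phosphorylates SMAD2 and SMAD3 so that they enter the nucleus with SMAD4. Among the genes they switch on are the pathway's own inhibitors. In stratified epithelium the pathway is known to restrain proliferation, and in squamous carcinomas also for its link to invasion.

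RefSeq promoter windows, from 250 bases before to 50 bases after the annotated start in build GRCm38.p6, were held for 6 of the 10 members. Those of both called ligand genes, which differed in the size of their rise, and of Tgfbi, the member with the highest level, are shown 5′ to 3′. Capitals mark matches on either strand to the SMAD motif CAGACA, the AP-1 motif TGANTCA, the TATA motif TATAAA or the GC box GGGCGG.
Tgfb1 promoter, chr7:25686752-25687051, plus strand: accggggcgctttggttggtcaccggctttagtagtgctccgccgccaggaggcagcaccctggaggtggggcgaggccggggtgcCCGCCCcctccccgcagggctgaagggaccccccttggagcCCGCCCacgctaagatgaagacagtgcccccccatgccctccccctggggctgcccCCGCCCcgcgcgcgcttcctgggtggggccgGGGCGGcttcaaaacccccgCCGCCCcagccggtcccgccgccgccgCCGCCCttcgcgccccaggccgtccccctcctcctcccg
Tgfb2 promoter, chr1:186705940-186706239, minus strand: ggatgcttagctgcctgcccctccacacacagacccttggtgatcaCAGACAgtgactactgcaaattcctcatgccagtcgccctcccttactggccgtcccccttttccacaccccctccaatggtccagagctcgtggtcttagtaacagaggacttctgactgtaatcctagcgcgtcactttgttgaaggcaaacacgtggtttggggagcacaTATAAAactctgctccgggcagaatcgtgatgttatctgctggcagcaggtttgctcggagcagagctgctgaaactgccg
Tgfbi promoter, chr13:56609336-56609635, plus strand: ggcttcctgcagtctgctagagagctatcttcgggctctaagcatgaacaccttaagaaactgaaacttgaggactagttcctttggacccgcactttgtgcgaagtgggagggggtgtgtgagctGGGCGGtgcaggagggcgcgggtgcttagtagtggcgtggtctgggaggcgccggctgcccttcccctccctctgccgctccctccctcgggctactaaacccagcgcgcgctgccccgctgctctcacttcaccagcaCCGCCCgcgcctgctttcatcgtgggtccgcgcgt
The Tgfb1 window held 6 GC boxes and no TATA motif, and 77.0% of its bases were G or C, against a median of 52.7% over all windows. The Tgfb2 window held no GC box, 1 TATA motif that began 31 bases before the start and 1 SMAD motif that began 204 bases before it, at 54.3% G or C. The Tgfbi window held 2 GC boxes. No marked match overlapped a match to another motif. Among all 32851 RefSeq windows of this length, 21.0% held CAGACA, 7.81% TGANTCA, 13.6% TATAAA and 35.7% GGGCGG. The AP-1 motif was in none of the 7 member windows, and the SMAD motif was otherwise matched in 1 of the 2 Tgfbr1 windows. These matches describe the letters in the windows and were not tested against the expression values.

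Expression is given in FPKM, fragments scaled for transcript length and sequencing depth, as a single value that the authors deposited for each gene and fraction. These group values carry no spread, the depth per sample is unknown, and the spread between samples enters only through the authors' p-values and q-values from Cuffdiff. Whether a fraction's samples came from different mice or pools is not stated in the labels, so these p-values may measure technical spread. A gene was called at a q-value below 0.05. The check of the label held by direction: Bmi1 stood at 3.11 FPKM in the negative and 7.03 FPKM in the positive fraction, and was called in the authors' deposited table with q = 0.00109. Keratinocyte markers were abundant in both fractions, with 8 genes summing to 7793 FPKM in the negative and 23724 FPKM in the positive fraction. The difference of these sums lay mainly in Krt14, at 2292 and 13864.5 FPKM, and Krt5, at 1670 and 5176 FPKM. Cdh1 was listed lower in Tomato-positive cells, at 96.3 and 85.3 FPKM, without a call. Epcam was 25.1 and 46.4 FPKM.

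Most of these pathway genes were higher in the Bmi1-marked cells. Of the 10 members, 7 were called higher and 0 lower, against 13.0% of 16219 tested genes called higher, 14.2% called lower and 27.2% called in either direction. The members were chosen with earlier results of these data known, so this comparison is descriptive and not an independent test. Tgfb1, Smad7, Pmepa1 and Tgfbi, 4 in all, rose at least 2-fold, a size and direction called for 7.11% of tested genes. Tgfb2, Tgfbr1 and Tgfbr2 rose less than 2-fold. Tgfb3 and Skil were tested and did not pass, and Ltbp2 had the status of a gene left untested by the authors. The FPKM value was higher in Tomato-positive cells for all 10 members, the uncalled ones included, and no member was lower at an unadjusted Cuffdiff p below 0.05. The median log2 fold was 1.18 over the 10 members, the untested Ltbp2 included, and 0.96 over the 9 tested ones, beside 0.02 over all tested genes. The plot of member levels shows these distances.

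**Figure D1:**
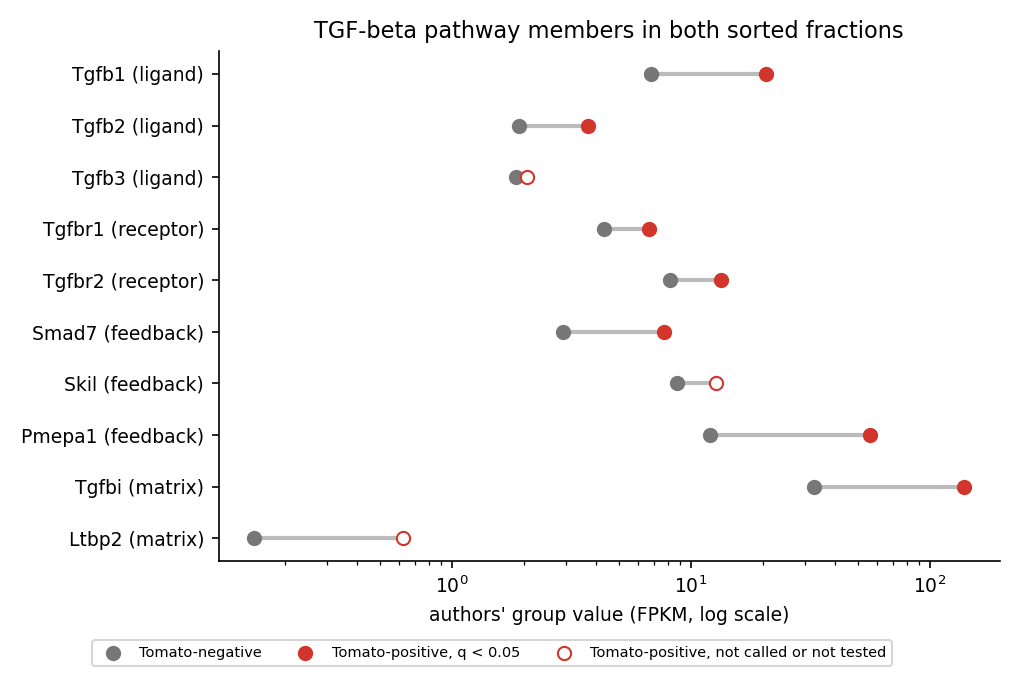
Authors' group values of the 10 members in FPKM on a log axis, grey for Tomato-negative and red for Tomato-positive cells, with filled red points for genes called at q below 0.05. Pmepa1 and Tgfbi show the longest shifts among called members, while Tgfb3 lies at 1.85 and 2.06 FPKM.

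Among the ligands, Tgfb1 had the highest level in both fractions and the largest rise. It encodes TGF-beta 1, the most widely expressed isoform. Tgfb1 (chromosome 7, 26472020 to 26490096, in mm9 like all gene positions given) was listed at 6.81 FPKM in the negative and 20.7 FPKM in the positive fraction. This was a 3.03-fold difference, a log2 fold of 1.60, called in the authors' deposited table with q = 0.000405, the lowest q that table holds. Tgfb2 (chromosome 1, 188447064 to 188529871), which unlike the other isoforms depends on a co-receptor for strong receptor binding, stood at 1.91 and 3.70 FPKM. Its log2 fold was 0.96, called in the authors' deposited table with q = 0.00781. Tgfb3 (chromosome 12, 87165608 to 87419991), known for its part in palate fusion, was listed at 1.85 and 2.06 FPKM. Its log2 fold of 0.15 did not pass in the authors' deposited table, with q = 0.822.

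The ligand rows were thus at nearly the same level for Tgfb2 and Tgfb3 in Tomato-negative cells, and apart in Tomato-positive cells. Summed over the ligands, the level was 10.6 FPKM in the negative and 26.4 FPKM in the positive fraction. Tgfb1 made up 64.5% of that sum in the first and 78.2% in the second, and Tgfb3 17.5% and 7.78%. These shares come from group values, and the difference between the ligands' folds was not tested. The Tgfb3 row shares its locus with Ttll5 and Gm17691, and the Tgfb2 row with a small RNA. The strand setting is not given in the sources used here, so reads of overlapping genes may not have been told apart.

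Both receptors rose, each by less than 2-fold. Tgfbr1 (chromosome 4, 47366093 to 47427803), the type I receptor kinase that phosphorylates SMAD2 and SMAD3, stood at 4.31 FPKM in the negative and 6.65 FPKM in the positive fraction. Its 1.54-fold rise, a log2 fold of 0.63, was called in the authors' deposited table with q = 0.00934. Tgfbr2 (chromosome 9, 115993414 to 116084383), the type II receptor that binds the ligand, stood at 8.20 and 13.4 FPKM. Its 1.63-fold rise, a log2 fold of 0.70, was called in the authors' deposited table with q = 0.00109. The order of the receptors was the same in both fractions, with Tgfbr2 at 1.90 times the level of Tgfbr1 in Tomato-negative and 2.01 times in Tomato-positive cells. Tgfb1 lay below Tgfbr2 in Tomato-negative cells, at 0.831 times its level, and above it in Tomato-positive cells, at 1.55 times. The log2 fold of Epcam in the same comparison was 0.89, and the folds of both receptors were smaller than it.

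The feedback genes, which TGF-beta itself induces and which dampen its signal, were led by Pmepa1. Pmepa1 (chromosome 2, 173049958 to 173102034) encodes a membrane protein that keeps SMAD2 and SMAD3 from the receptor. It stood at 12.0 FPKM in the negative and 56.3 FPKM in the positive fraction. This 4.68-fold difference, a log2 fold of 2.23, was called in the authors' deposited table with q = 0.000405, and 97.7% of tested genes with a fold had a lower one. Smad7 (chromosome 18, 75527182 to 75555589), the inhibitory SMAD that blocks the type I receptor and brings in ligases that degrade it, stood at 2.92 and 7.75 FPKM. Its 2.65-fold rise, a log2 fold of 1.41, was called in the authors' deposited table with q = 0.00109.

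Skil (chromosome 3, 30993979 to 31021499) encodes SnoN, a nuclear co-repressor of SMAD targets. It was listed at 8.74 FPKM in the negative and 12.7 FPKM in the positive fraction, with a log2 fold of 0.54. Its p-value gave no call: in the authors' deposited table it had an unadjusted p of 0.0296 and q = 0.0921. The feedback genes differed in fold from 1.46 for Skil to 4.68 for Pmepa1, and these differences between genes were not tested.

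Tgfbi, the member with the highest level in both fractions, also rose. Tgfbi (chromosome 13, 56710919 to 56740923) encodes a secreted, collagen- and integrin-binding protein named for its induction by TGF-beta. It stood at 32.8 FPKM in the negative and 139.6 FPKM in the positive fraction. The 4.26-fold difference, a log2 fold of 2.09, was called in the authors' deposited table with q = 0.000405. In Tomato-positive cells its level was above that of 92.9% of tested genes. Ltbp2 (chromosome 12, 86124161 to 86219082) belongs to the latent TGF-beta binding protein family by structure but is not known to bind latent TGF-beta. It was listed at 0.148 and 0.622 FPKM and was not tested by the authors. Its row shares a locus with D030025P21Rik, and its log2 fold of 2.07 became 0.50 with a pseudocount of 1 FPKM.

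**Figure D2:**
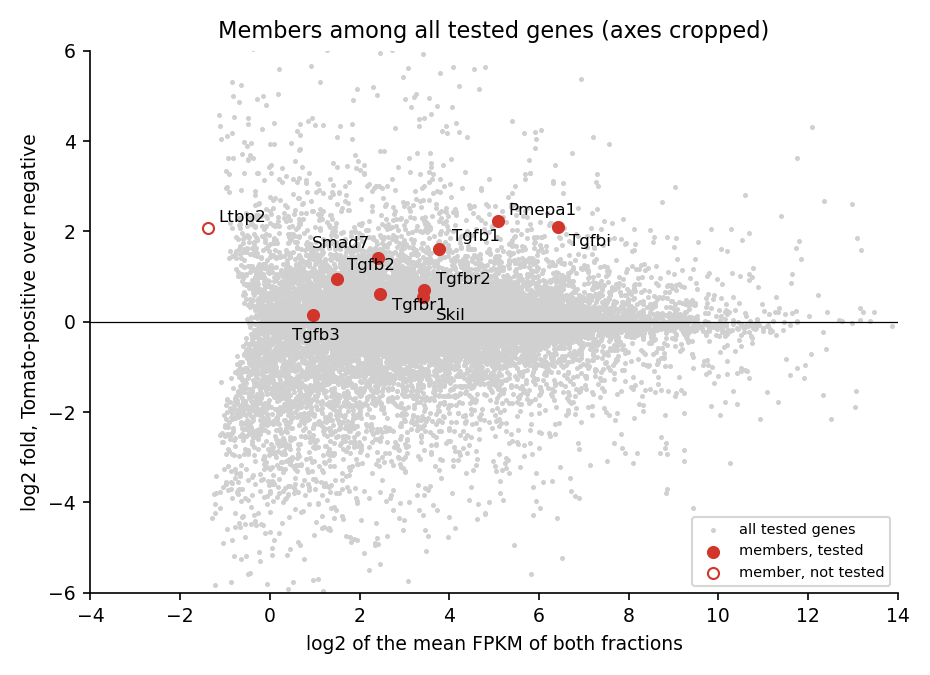
Log2 fold of Tomato-positive over Tomato-negative FPKM against the log2 of the mean FPKM, for tested genes with values above 0 in both fractions (grey, axes cropped) and the members (red, open for the untested Ltbp2). All 10 members lie above 0, with Pmepa1 at 2.23 and Tgfbi at 2.09 the highest of the tested members and Tgfb3 at 0.15 the lowest.

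The other pathway genes were called in both directions. Of 66 such genes in 6 lists ordered by role, 62 were tested, 24 were called higher and 8 lower, and 30 did not pass. The higher calls were 38.7% of the tested genes, against 13.0% over all tested genes, and the lower calls were 12.9%, near the 14.2% over all tested genes. These lists, too, were chosen with earlier results of these data known. The median log2 fold over all listed genes with values was 0.29. The untested genes were Itgb8, Foxh1, Il11 and Ankrd1. Of the genes named in the next paragraphs, Fbn1, Ltbp1, Ltbp3, Itgav, Tgfbr3, Cd109, Eng, Zfyve9, Mmp14, Hmga2, Tagln, Fn1, Col1a1 and Bhlhe40 share a locus with other rows, with the limit given for Tgfb3.

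Genes that store and activate latent TGF-beta rose in 5 of 12 members and fell in 2. Of the 11 tested, 45.5% were called higher and 18.2% lower, against 13.0% and 14.2% over all tested genes. Thbs1, thrombospondin 1, a matrix protein that can release TGF-beta from its propeptide, rose from 2.13 to 21.2 FPKM, with a log2 fold of 3.32. Ltbp1, which anchors latent TGF-beta in the matrix, rose from 4.40 to 13.7 FPKM, with a log2 fold of 1.64. Itgb6, the epithelial integrin chain that pairs with the alpha v chain to release active TGF-beta, rose from 2.04 to 6.17 FPKM. Its partner chain Itgav did not pass, at 65.4 and 52.4 FPKM. Furin, the protease that cuts the ligand precursor, rose from 19.2 to 43.7 FPKM, and the membrane metalloprotease Mmp14 rose from 16.6 to 26.3 FPKM. The members that fell were the fibrillin gene Fbn1, from 2.12 to 0.597 FPKM, and Ltbp4, from 42.6 to 20.8 FPKM. Ltbp3 did not pass, with 5.33 and 3.59 FPKM.

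Thus the binding protein genes did not move together: Ltbp1 was called higher, Ltbp4 lower and Ltbp3 neither. Fbn1, Ltbp4 and other matrix genes are known to be made by fibroblasts. All 10 fibroblast and pericyte markers were called lower in the same comparison, against 14.2% of all tested genes. Their sum fell from 646 FPKM in Tomato-negative to 131 FPKM in Tomato-positive cells, with none at 0. Dcn held the largest part of these sums, at 406 and 58.5 FPKM. The part of fibroblast RNA in the falls of Fbn1 and Ltbp4 was not tested.

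Of 5 accessory receptor genes, all tested, 0 were called higher and 1 lower by the authors' Cuffdiff q. Over all tested genes 13.0% were called higher and 14.2% lower, and a list of 5 is too small to set its counts apart from these shares. At an unadjusted p below 0.05 the counts in this list were 0 higher and 2 lower. Tgfbr3, betaglycan, the co-receptor that presents TGF-beta 2 to the type II receptor, fell from 5.07 to 1.09 FPKM, with a log2 fold of -2.22 and called in the authors' deposited table with q = 0.000405. The fall of Tgfbr3 ran against the rise of Tgfbr1, Tgfbr2 and the ligand gene Tgfb2. In the same comparison the fibroblast and pericyte markers had a median log2 fold of -2.26. The part of fibroblast RNA in the fall of Tgfbr3 was not tested. Cd109, a surface protein that inhibits TGF-beta receptor signalling, did not pass at 24.7 and 22.1 FPKM. Eng, the endothelial co-receptor endoglin, did not pass either, at 9.42 and 15.9 FPKM.

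Among 8 genes for SMADs and signal transducers, 3 rose and 0 fell, each by less than 2-fold. The higher calls were 42.9% of the 7 tested genes, beside 13.0% of all tested genes called higher. Smad4, the shared partner of the receptor-activated SMADs, rose from 16.8 to 27.3 FPKM, and was called in the authors' deposited table with q = 0.0454, near the threshold. Smad2 rose from 19.3 to 30.2 FPKM, and Trim33, a ubiquitin ligase that binds SMADs, from 5.04 to 7.69 FPKM. At an unadjusted p below 0.05 the counts in this list were 3 and 1. Zfyve9, the receptor anchor SARA, was listed at 22.7 and 17.2 FPKM and the adaptor gene Traf6 at 17.9 and 14.9 FPKM, and neither passed the q threshold.

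Other inhibitors of the pathway rose in 4 of 15 members and fell in 1. All 15 were tested, with 26.7% called higher and 6.67% lower, against 13.0% and 14.2% over all tested genes. Tgif1, a homeodomain co-repressor of SMAD2, rose from 12.3 to 71.3 FPKM, with a log2 fold of 2.53. Bambi, a decoy receptor without a kinase domain, rose from 0.471 to 2.24 FPKM. Ldlrad4, which competes for SMAD2 and SMAD3 and is related to Pmepa1, rose from 0.998 to 4.53 FPKM, with a log2 fold of 2.18 beside 2.23 for Pmepa1. Smurf1, a ubiquitin ligase that SMAD7 brings to the receptor, rose from 11.6 to 18.3 FPKM. Dcn, decorin, a matrix proteoglycan that binds TGF-beta, fell from 406 to 58.5 FPKM, and it also stands in the fibroblast marker list. Fkbp1a (71.7 and 105.7 FPKM) and Ppm1a (48.8 and 57.6 FPKM) did not pass.

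Targets that TGF-beta is known to induce rose in 10 of 22 members and fell in 3. Hmga2, an architectural chromatin gene, had the largest fold, from 0.133 to 9.08 FPKM. Pthlh, parathyroid hormone-related protein, rose from 6.61 to 125 FPKM, with a log2 fold of 4.24. The growth factor gene Pdgfb rose from 3.50 to 12.4 FPKM. Cdkn1a, an inhibitor of cyclin-dependent kinases, was listed at 211 and 173 FPKM and Bhlhe40, a transcriptional repressor gene, at 44.6 and 48.9 FPKM, and neither passed.

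The induced targets that fell were Tagln, Fn1 and Col1a1. Tagln, a smooth muscle and myofibroblast actin-binding protein, fell from 203 to 31.5 FPKM, in a row that shares its locus with Bace1 and others. Fn1, fibronectin, fell from 12.4 to 6.32 FPKM, and the collagen gene Col1a1 from 15.2 to 7.35 FPKM. Col1a1 is itself a fibroblast marker, and that marker list fell in 10 of 10 members, as given above. The part of fibroblast RNA in these falls was not tested. In such sorted bulk samples fewer cells of a type and less RNA per cell cannot be told apart.

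Genes that TGF-beta is known to repress in epithelial cells, 4 in number, did not move in 1 direction. Id2 fell from 24.4 to 15.1 FPKM, while Id3 rose from 21.1 to 48.0 FPKM and Id1 from 88.3 to 121 FPKM. Id1 was called in the authors' deposited table with q = 0.0454. The Id proteins block basic helix-loop-helix factors and are also known targets of bone morphogenetic proteins. Myc, the growth-promoting transcription factor gene, did not pass, with 32.7 and 31.5 FPKM.

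**Figure D3:**
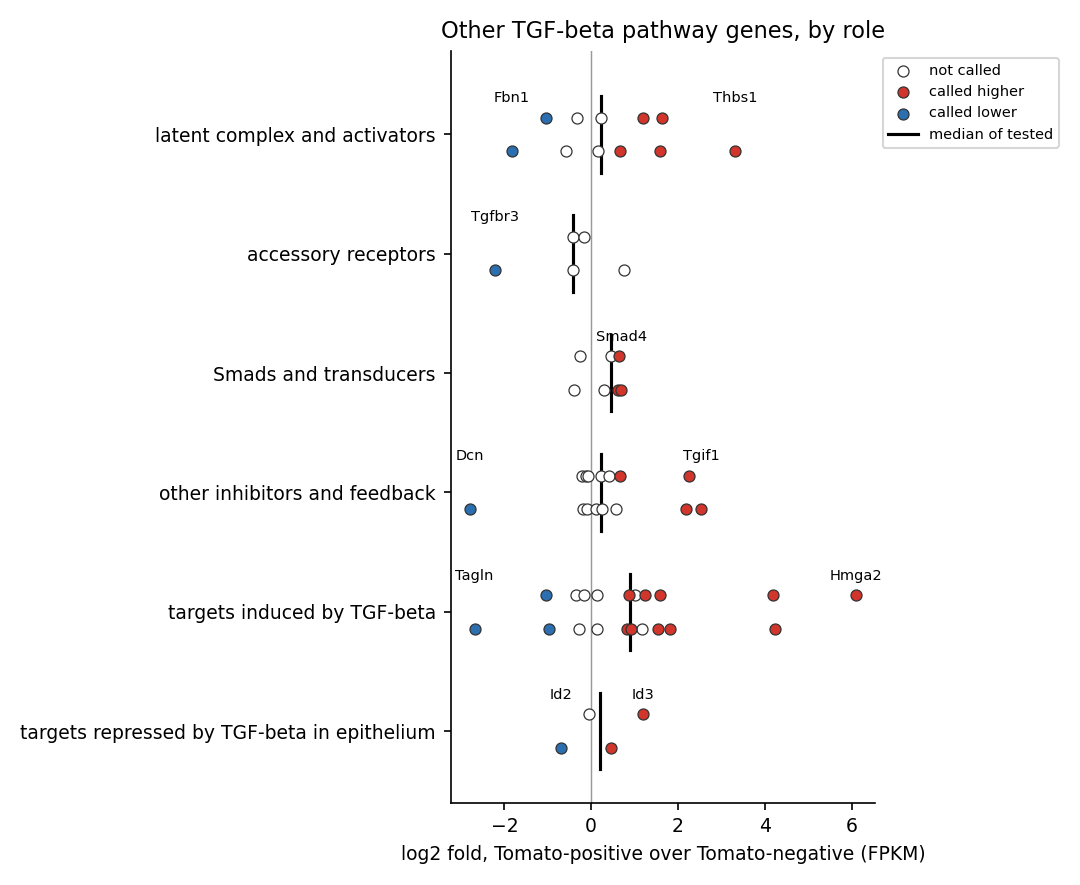
Log2 fold of Tomato-positive over Tomato-negative FPKM for the tested genes of 6 TGF-beta pathway lists, red if called higher, blue if called lower and open if not called at q below 0.05, with black lines at the median of tested genes. The induced targets span from Tagln at -2.69 to Hmga2 at 6.10, and the only called accessory receptor is Tgfbr3 at -2.22.

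Several members are also expressed outside epithelium, Tgfb1 in immune cells and platelets, Tgfbr2 in endothelium and Tgfbi in macrophages and fibroblasts. Both fractions had passed the EpCAM gate, which should remove such cells, and their markers were nonetheless measured. Macrophage markers fell in 7 of 8 genes, from a sum of 364 to 106 FPKM. T cell markers fell in 2 of 7, of which 6 were tested, from 26.5 to 6.55 FPKM. Of 6 platelet markers, 3 of them tested, 1 rose and 2 fell, from 30.0 to 19.0 FPKM, with Gp9 listed at 0 in Tomato-negative cells. Skeletal muscle markers fell in 6 of 7 genes, from 697 to 53.7 FPKM. Over all tested genes 14.2% were called lower and 13.0% higher. The macrophage, T cell, platelet, muscle and fibroblast lists had lower sums in Tomato-positive cells, though the platelet marker Ppbp was called higher. The part of these cell types in the values of Tgfb1, Tgfbr2 and Tgfbi was not tested.

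Endothelial markers, by contrast, rose in 5 of 8 genes and fell in 1, from a sum of 34.1 to 45.3 FPKM. All 8 were tested, with 62.5% called higher and 12.5% lower, against 13.0% and 14.2% over all tested genes. Neutrophil markers rose in 3 of 8 genes, of which 5 were tested, from 7.37 to 45.1 FPKM. The higher calls were 60.0% of the tested ones. The sums of both lists moved with the members, but single markers did not all do so. Among endothelial markers Cldn5 was called lower, with a log2 fold of -2.45, and Vwf was lower without a call. Among neutrophil markers the untested Ly6g and Ngp and the uncalled Camp had lower values in Tomato-positive cells. Retnlg, at 19.2 FPKM, and Csf3r, at 17.1 FPKM, were the highest parts of the neutrophil sum there. Apart from Gp9 no marker in these 8 lists was listed at 0 in either fraction. The part of endothelial and neutrophil RNA in the rise of Tgfb1, Tgfbr2 and the other members was not tested. Keratinocyte markers rose in 5 of 8 tested genes, or 62.5%, with a median log2 fold of 0.81. The folds of Tgfb1, Tgfb2, Smad7, Pmepa1 and Tgfbi were larger than that median, and those of Tgfbr1, Tgfbr2, Skil and Tgfb3 were smaller.

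**Figure D4:**
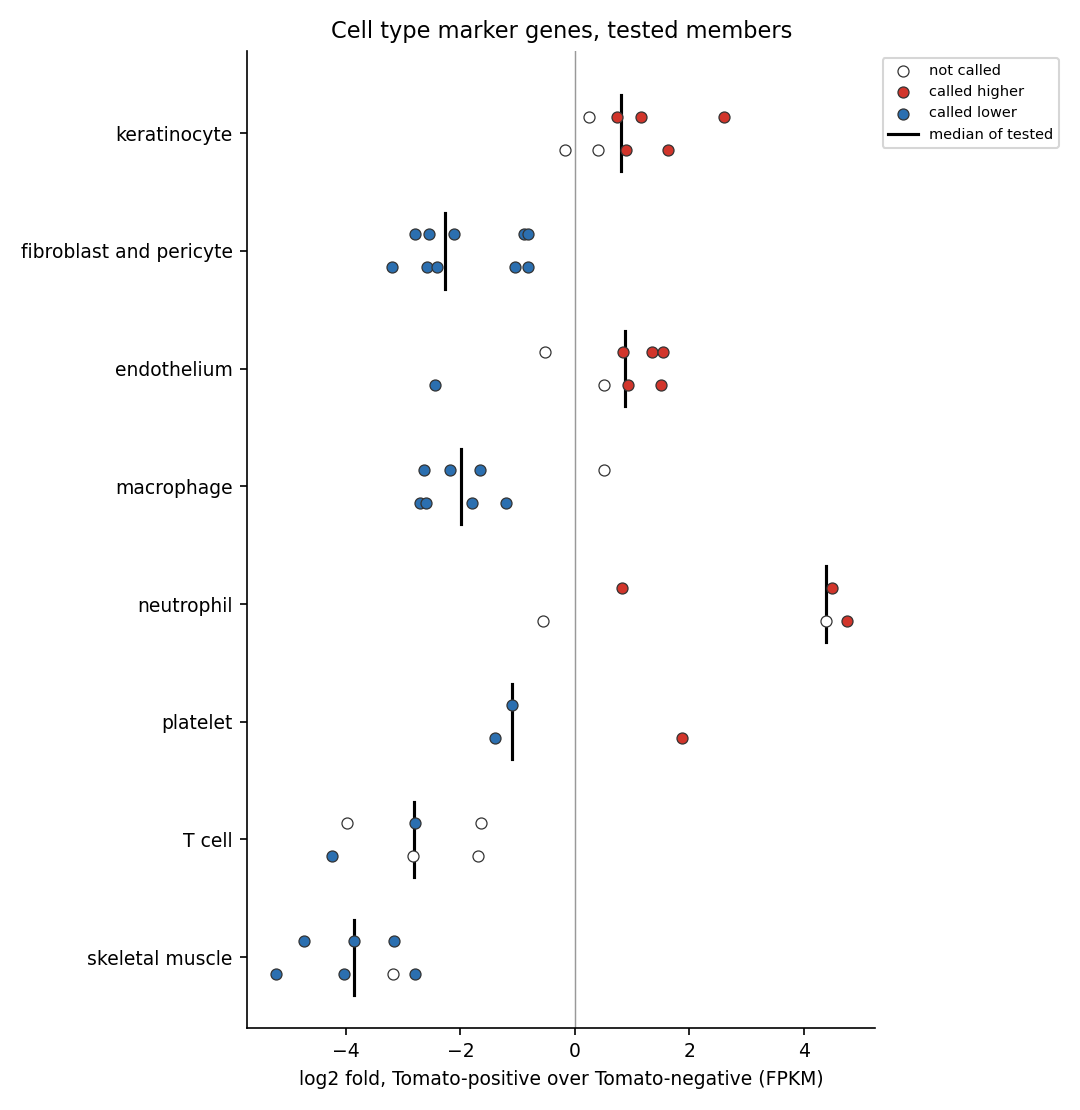
Log2 fold of Tomato-positive over Tomato-negative FPKM for the tested genes of 8 cell type marker lists, with colours and median lines as for the pathway lists. Fibroblast, macrophage, platelet, T cell and muscle medians lie below 0, and keratinocyte, endothelial and neutrophil medians above it. The neutrophil median of 4.38 is over 5 tested genes and is the value of Mmp8, which was not called. Over all 8 neutrophil markers, untested ones included, the median is 0.54.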

How the data were processed

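RNA was sequenced from 2 Tomato-positive and 2 Tomato-negative samples. TopHat, Cuffdiff and the genome build mm9 are named in the submitters' processing notes, with versions, annotation and strand setting not given in the sources used here. In the authors' deposited table each gene has 1 FPKM value for each fraction, which joins the samples, so no SD, n or depth per sample can be given. Its p-values and q-values are the authors' own; the deposited q-values differed from a Benjamini-Hochberg adjustment of the p-values over the 16219 tested genes by at most 5.27e-07. Log2 folds were computed from FPKM without a pseudocount. The lowest p-value, 5e-05, is shared by 2004 genes.

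The members and the gene lists were chosen with earlier results of these data known. Named genes are the 10 members, Bmi1, Epcam and, per list, up to 5 called genes with the largest fold and up to 2 uncalled genes with the highest mean FPKM. Mmp14, Ltbp4, Fn1, Col1a1 and the untested genes were named after their values were seen, to complete small counts. The values of 1 listed target gene are not reported here. The TATA and GC box motifs were likewise added after the promoter sequences had been seen. Nrros and Ldlrad4 were matched through their older symbols and Ensembl IDs. The code for folds, calls and the adjustment was tested on simulated data. Those data held no replicates and no Cuffdiff model, so the authors' p-values were not tested. Other q thresholds, a minimum fold of 1.5, an FPKM filter, pseudocounts and rescaled FPKM were computed as alternatives. Python 3.11.15, pandas 2.3.3, NumPy 2.4.6 and matplotlib 3.10.9 were used.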

Additional observations from a re-analysis of the deposited data

How the results depend on the processing

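The counts of called members, 7 higher and 0 lower, were the same at q below 0.01, with a minimum fold of 1.5 and after adjustment over the 15889 genes that reached 1 FPKM in either fraction. At q below 0.10 Skil was added, which made 8. The other pathway genes called higher numbered between 21 and 25 under these settings, and those called lower 8 under each. Rescaling by the median of tested genes, by the sum without small RNA rows or by the 75th percentile subtracted at most 0.06 from a log2 fold and turned no member's direction. A pseudocount of 1 FPKM moved Ltbp2 from 2.07 to 0.50, since it is large beside that gene's values, and the other 9 members shifted by no more than 1.5-fold. No paired analysis was possible because the table joins the samples of a fraction into a single value, and leaving out a replicate was not run for the same reason. Depth per sample is unknown, so what low genes such as Ltbp2 could show is not known.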
